A study of Mus musculus with 21 samples.

Results

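The 4 serum amyloid A genes Saa1, Saa2, Saa3 and Saa4 were described across the 7 groups of a mouse liver cell study. They were picked by name, for their rise without induction and their response to induction at both passages, and they are 4 of 37074 gene names on the array. The values that led to their choice were the changes over 8 days without induction and the differences between induced and uninduced cells. Those values are therefore given as a description, with no test.

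The study started from hepatocytes freshly isolated from C57BL/6 females and from chemically induced liver progenitors (CLiPs), proliferating progenitor-like cells obtained from such hepatocytes in culture. One set of CLiPs was at passage 1 (P1). The late set was at passage 12 for replicates 1 and 2 and at passage 11 for replicate 3. At each passage there were cells before hepatic induction (day 0), cells kept for 8 days without the inducers, and cells kept for 8 days with oncostatin M, a cytokine of the interleukin-6 family, and dexamethasone, a synthetic glucocorticoid. Both inducers were always given together, so their effects cannot be told apart here. Each of the 7 groups held 3 one-colour arrays. The labels do not say whether these were separate cultures or animals, so p-values cover only the spread among the 3 arrays of a group, which may be technical.

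Serum amyloid A proteins are small apolipoproteins that travel in plasma on high-density lipoprotein (HDL). In the mouse liver Saa1 and Saa2 are the major acute-phase members, silent or low at rest and raised strongly by interleukin-1, tumour necrosis factor and cytokines of the interleukin-6 family, with glucocorticoids acting as enhancers. Saa3 is the inflammatory form known from macrophages, fat and epithelia as well as liver, and Saa4 is the constitutive form, made by hepatocytes and little altered in the acute phase. C/EBP factors, NF-kB and STAT3 are the regulators best known from serum amyloid A promoters.

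The genes lie side by side on chromosome 7, in the order Saa3, Saa4, Saa1, Saa2 in the reference. The older names of Saa1 and Saa2 are exchanged in the reference's synonyms, so the names used here are those of the array. Each gene had 1 probe of 60 bases, placed by the scanner files on mm9. The Saa1 probe lay at chr7:53996070-53996129 on the minus strand. The Saa2 probe lay at chr7:54009535-54009594 on the plus strand. The Saa3 probe at chr7:53967559-53967618 and the Saa4 probe at chr7:53983662-53983721 were both on the minus strand. Whether the Saa1 and Saa2 probes also take up each other's transcript was not tested, so their separate values are uncertain to that extent.

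The 250 bases before a start listed for each gene are shown because the 4 genes differed in their response. They are from RefSeq on GRCm38.p6, and all 4 genes were matched by symbol. The reference span of Saa3 (46711998 to 46719615) contains its whole window, and that of Saa1 (46740497 to 46743181) most of its window. The windows of Saa2 and Saa4 abut the spans of their genes. Capitals mark the letters TTGCNNAA of a C/EBP motif or GGGNNNNNCC, a loose NF-kB motif, on either strand.
Saa1, chr7:46742981-46743230, minus strand: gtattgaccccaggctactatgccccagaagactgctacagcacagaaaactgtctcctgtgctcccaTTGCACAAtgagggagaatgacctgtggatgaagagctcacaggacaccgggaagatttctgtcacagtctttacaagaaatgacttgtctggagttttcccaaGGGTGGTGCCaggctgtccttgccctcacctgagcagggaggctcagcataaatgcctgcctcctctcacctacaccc
Saa2, chr7:46751583-46751832, plus strand: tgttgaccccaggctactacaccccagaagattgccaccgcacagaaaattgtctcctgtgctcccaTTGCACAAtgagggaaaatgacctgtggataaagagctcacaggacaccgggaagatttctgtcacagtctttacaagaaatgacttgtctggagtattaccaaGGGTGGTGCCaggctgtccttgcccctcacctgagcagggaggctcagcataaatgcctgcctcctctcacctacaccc
Saa3, chr7:46715677-46715926, minus strand: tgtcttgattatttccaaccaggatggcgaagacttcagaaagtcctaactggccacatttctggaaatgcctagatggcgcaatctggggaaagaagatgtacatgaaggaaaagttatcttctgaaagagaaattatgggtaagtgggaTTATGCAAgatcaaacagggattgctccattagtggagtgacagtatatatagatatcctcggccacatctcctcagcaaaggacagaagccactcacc
Saa4, chr7:46732604-46732853, minus strand: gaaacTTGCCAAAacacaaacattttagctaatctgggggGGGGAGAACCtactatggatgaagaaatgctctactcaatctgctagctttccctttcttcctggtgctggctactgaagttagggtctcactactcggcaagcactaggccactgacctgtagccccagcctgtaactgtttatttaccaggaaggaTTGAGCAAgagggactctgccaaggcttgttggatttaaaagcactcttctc

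The windows of Saa1 and Saa2 were identical at 238 of 251 aligned positions (94.8%). The other 5 pairs of windows were 42.6% to 48.9% identical under the same global alignment. A C/EBP match stood in all 4 windows, once in Saa1, Saa2 and Saa3 and 2 times in Saa4, against 9.56% of 32851 RefSeq promoter windows of the same length. The loose NF-kB letters stood in Saa1, Saa2 and Saa4, against 45.8% of all windows. The STAT letters TTCNNNGAA (7.02% of windows) and the glucocorticoid receptor letters GNACANNNTGTNC (0.387%) had no match in these windows. A match is a run of letters and not a measured site.

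A level below is the log2 signal of a gene's probe minus the 75th percentile of its array, so 0 is the brightness that 75% of its probes do not exceed. Levels were compared within a probe, never between probes. Differences are first-named group minus second, given with the unpaired SE of the difference for 3 against 3 arrays. Other genes are said to have risen or fallen where limma gave a Benjamini-Hochberg adjusted p under 0.05 with a change of 2-fold or more. The 75th percentile signal ran from 291 to 1241 over the arrays, 46.1% to 60.5% of probes were well above background, and no spot was saturated. Per the file headers the 12 fresh and P1 arrays were read on scanner 1 and the 9 late arrays on scanner 2, with another software version, so passage and batch cannot be told apart and levels at P1 and late passage are only set side by side. In these bulk samples fewer cells of a type and less RNA per cell cannot be told apart.

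The CLiPs held hepatocyte transcripts at a much lower level. All 10 hepatocyte markers fell from fresh to P1 day 0 cells (median log2 change -5.74), against 25.2% of all genes tested. Cyp2e1 was well above background on no day 0 array at either passage, and Cps1 on 1 of 3 at P1 and on none late. The summed linear level of 10 hepatocyte markers, in multiples of the 75th percentile and carried by the brightest probes, was 4430 to 5193 on fresh arrays, 928 to 1158 at P1 day 0 and 69.2 to 168 at late day 0. The fresh range includes 1 array that carries a P1 passage among its labels and was kept with the fresh cells its title names. After 8 days it was 876 to 930 in uninduced and 1288 to 1550 in induced P1 cells, and 300 to 414 and 393 to 722 in the late ones.

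Fresh hepatocytes held Saa1, Saa2 and Saa4 well above the P1 day 0 cells, and Saa3 to a smaller extent. Saa1 stood at 4.88, 4.83 and 4.85 on the fresh arrays and at -0.53, -0.28 and -0.57 at P1 day 0, a fall of 39.8-fold (log2 change -5.32, limma adjusted p = 5.0e-09). Saa2 stood at 5.75, 5.69 and 5.57 and then at -2.41, -2.92 and -1.67, a fall of 257-fold (log2 change -8.00, limma adjusted p = 7.4e-08). Saa3 stood at 2.03, 2.18 and 2.27 and then at 0.42, 0.80 and -0.05, a fall of 3.41-fold (log2 change -1.77, limma adjusted p = 3.0e-04).

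The constitutive gene Saa4 fell below reliable measurement. It stood at 4.51, 4.76 and 4.52 on the fresh arrays and was not well above background on any P1 day 0 array, at least 358-fold lower (log2 change -10.32, limma adjusted p = 1.1e-10). A minimum is the bright group's mean over the dimmest signal that still counted as well above background. Of all 20631 genes tested, 25.2% fell in this comparison, which shares the P1 day 0 arrays with the values that chose the genes, and the fresh and P1 arrays lay on different slides.

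Without inducers, all 4 genes were higher after 8 days than at day 0 in P1 cells, and no array of either group overlapped. Saa1 reached 0.75, 1.28 and 1.58, which is 3.16-fold above day 0 (log2 1.66 ± 0.26). Saa2 reached -0.39, 0.82 and 1.90, which is 8.62-fold above (3.11 ± 0.75), with array 1 the lowest and array 3 the highest. Saa3 reached 2.03, 2.35 and 1.74, which is 3.14-fold above (1.65 ± 0.30).

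Saa4 read -3.46, -3.30 and -4.09, well above background on arrays 1 and 2, and at least 1.21-fold above day 0. Over all genes tested, 6.54% were 2-fold or more higher with no overlap of the arrays here. The rise left Saa1 and Saa2 below fresh hepatocytes, by 3.65 and 4.90 on the log2 scale (limma adjusted p = 1.1e-07 and 4.5e-06), and Saa4 by 8.21 (limma adjusted p = 6.1e-10). Saa3 differed from fresh by -0.12 (limma adjusted p = 0.73), with arrays that overlap, and this difference turned to 0.074 and 0.088 under normexp correction and quantile normalization and to 0.028 without uninduced array 3. In the comparison with fresh cells, which shares the uninduced arrays with the values that chose the genes, 24.8% of all genes fell.

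With oncostatin M and dexamethasone, Saa1 and Saa2 in P1 cells were among the genes with the greatest difference on the array. Saa2 read 9.14, 8.82 and 9.58, which is 339.6-fold above uninduced cells (8.41 ± 0.70), second of 17498 genes that were well above background on all arrays of both groups. Saa1 read 8.62, 8.35 and 9.21, which is 184-fold above (7.52 ± 0.35), 9th in the same order. All induced arrays lay more than 6 log2 units above every uninduced array for both genes.

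Saa4, background-level at day 0, was back in range with the inducers. It read 2.92, 2.50 and 3.66, which is 100.1-fold above uninduced cells (6.65 ± 0.41) and at least 121-fold above day 0. Saa3 had the smallest difference of the 4. It read 4.77, 4.41 and 5.65, which is 7.48-fold above uninduced cells (2.90 ± 0.41), place 253 of 17498. Of all genes tested, 9.91% were at least 2-fold higher with no overlap. Within slide 5, which held 1 uninduced and 2 induced arrays, the difference of Saa2 was 7.30 and that of Saa4 was 7.17.

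Set against fresh hepatocytes, induced P1 cells exceeded them in the 3 acute-phase members and stayed below them in the constitutive one. Saa1 was 14.6-fold higher (log2 change 3.87, limma adjusted p = 1.1e-07), Saa2 11.4-fold higher (3.51, limma adjusted p = 8.2e-05) and Saa3 6.88-fold higher (2.78, limma adjusted p = 1.3e-05). Saa4 was 2.96-fold lower (-1.57, limma adjusted p = 4.1e-04). All 3 arrays of each group lay on 1 side of the other group for each of these genes. Over all genes, 20.3% rose and 18.8% fell in this comparison, which shares the induced arrays with the values that chose the genes.

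**Figure D1:**
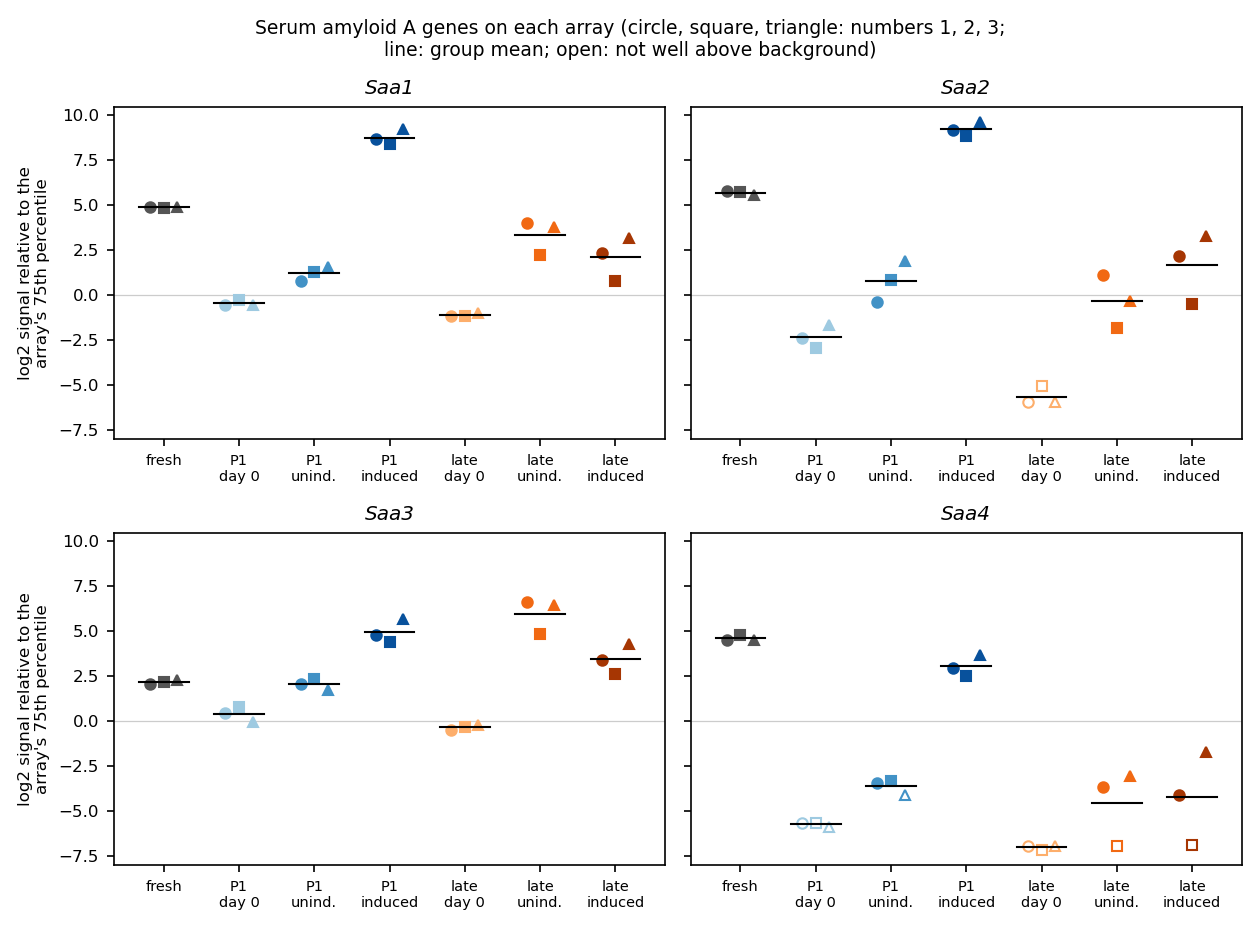
Log2 signal relative to the array's 75th percentile of the 4 serum amyloid A genes (vertical axis) on each of the 21 arrays in 7 groups (horizontal axis). Circles, squares and triangles are replicates 1, 2 and 3, lines are group means, and open symbols were not well above background. P1 induced cells were highest for Saa1 and Saa2, late uninduced cells for Saa3, and fresh hepatocytes for Saa4.

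At late passage the uninduced change was greatest for Saa3. Late day 0 cells read -0.48, -0.32 and -0.24, and after 8 days without inducers they read 6.57, 4.84 and 6.44, which is 78.4-fold above (6.29 ± 0.56). Among 19431 genes well above background throughout both groups, only 3 had a greater rise. Without late uninduced array 2 the difference was 6.85. The uninduced group gave the highest Saa3 mean of the 7 groups, although its lowest array overlapped the P1 induced arrays.

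Saa1 and Saa2 were higher too. Saa1 went from -1.16, -1.15 and -0.98 to 4.01, 2.21 and 3.75, which is 21.4-fold above (4.42 ± 0.57), place 23 of 19431. Saa2 was not well above background on any late day 0 array (-5.92, -5.05 and -5.92) and reached 1.12, -1.84 and -0.34, at least 21.6-fold above. Its measured difference was 5.27 ± 0.90, and 6.02 without late uninduced array 2, a shift of 1.67-fold. Under normexp correction it was 2.72.

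Saa4 stayed close to background in late cells. It was not well above background on the day 0 arrays and on uninduced array 2 (-6.92), and read -3.68 and -3.04 on the other uninduced arrays, at least 1.18-fold above day 0 as a group. It did not reach the brightness needed for the late fit. Of all 21342 genes tested at late passage, 8.57% were at least 2-fold higher with no overlap in this comparison, as Saa1, Saa2 and Saa3 were. Late uninduced array 2 had the lowest level of its group for all 4 genes.

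The late response to the inducers was read gene by gene. Saa3 was lower with the inducers, at 3.37, 2.60 and 4.28, which is 5.79-fold below uninduced cells (-2.53 ± 0.74) with no overlap of the arrays. From the lower end that was place 43 of 19463 genes, and 3.42% of all genes were at least 2-fold lower with no overlap. At P1 the same gene was 7.48-fold higher with the inducers, again with no overlap. Whether the 2 effects differ was not tested.

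Saa1 was lower on average in late induced cells but the groups overlapped. It read 2.31, 0.76 and 3.19, a difference of -1.23 ± 0.90, which was -1.79 without late uninduced array 2 and -0.57 without late induced array 2. Saa2 was higher on average, at 2.16, -0.49 and 3.26, also with overlap (2.00 ± 1.40). Leaving out 1 array moved that difference between 1.19 (without late induced array 3) and 3.06 (without late induced array 2). Saa4 read -4.11, -6.90 and -1.70, with array 2 not well above background, and differed by 0.31 ± 1.92.

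Late samples with the same replicate number deviated together over all genes, so differences within a number were also read. Saa1 was lower in all 3 numbers, by -1.70, -1.44 and -0.56, and Saa3 likewise, by -3.20, -2.24 and -2.16. Saa2 was higher in all 3, by 1.04, 1.35 and 3.61. Saa4 had differences of -0.43, 0.02 and 1.34 and thus no single direction. Replicate 2 was the lowest of its group in both late day 8 groups for each gene, and replicate 3, the passage 11 cells, the highest of the induced group. Late induced array 3 was also the only late array on slide 7.

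**Figure D2:**
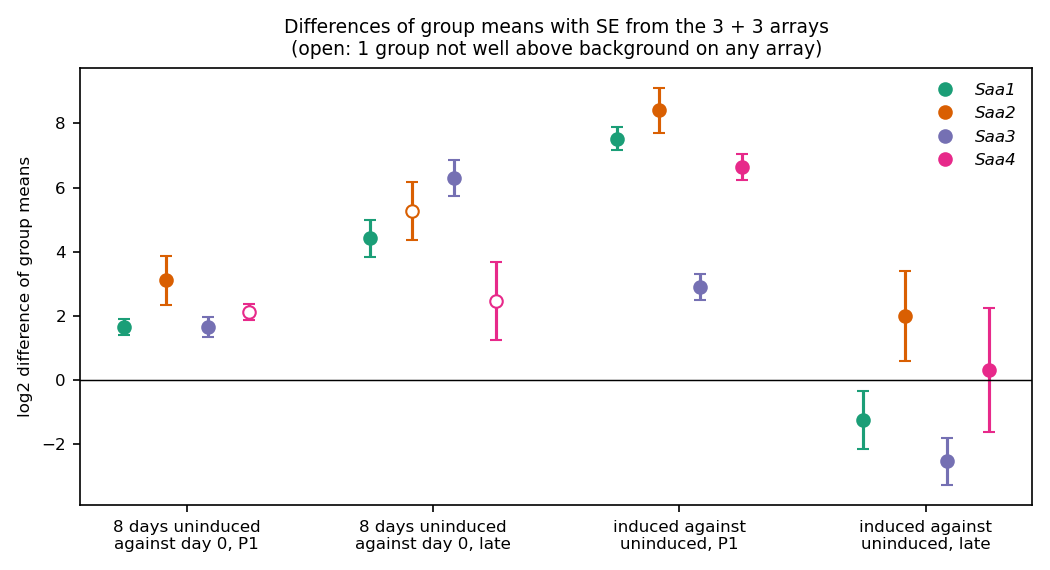
Log2 differences of group means (vertical axis) for 4 comparisons (horizontal axis), with bars for the unpaired SE of the difference of 3 and 3 arrays. Open symbols have 1 group that was not well above background on any array. Saa3 had the greatest late rise without inducers (6.29) and the smallest P1 response to them (2.90), and its late response was -2.53.

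The order of the group means differed between the genes. For Saa1 it ran from P1 induced (8.73) through fresh (4.86), late uninduced (3.32), late induced (2.09), P1 uninduced (1.20) and P1 day 0 (-0.46) to late day 0 (-1.10). The neighbours from late uninduced to P1 uninduced overlapped and the others did not. For Saa2 the order was P1 induced (9.18), fresh (5.67), late induced (1.64), P1 uninduced (0.77), late uninduced (-0.35), P1 day 0 (-2.33) and late day 0 (-5.63). There the neighbours from late induced to P1 day 0 overlapped.

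For Saa3 the order was late uninduced (5.95), P1 induced (4.94), late induced (3.42), fresh (2.16), P1 uninduced (2.04), P1 day 0 (0.39) and late day 0 (-0.34). Only the first pair and the pair of fresh and P1 uninduced overlapped. Saa4 was highest in fresh cells (4.60), then in P1 induced cells (3.03), and the next 4 groups from P1 uninduced (-3.62) to P1 day 0 (-5.73) overlapped as neighbours. Late induced cells stood below P1 induced cells by 6.64 for Saa1, 7.54 for Saa2, 1.53 for Saa3 and 7.26 for Saa4, whereas late uninduced cells stood above P1 uninduced cells by 3.91 for Saa3 and 2.12 for Saa1. Late uninduced cells stood below P1 uninduced cells by 1.13 for Saa2 and by 0.93 for Saa4. These gaps across passages carry the change of scanner and software.

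Saa3 is also a macrophage gene, so macrophage markers were read beside it. Of 12 such markers on the array, 6 (Cd5l, Vsig4, Adgre1, Timd4, C1qa and C1qc) were well above background on no CLiP array, and Clec4f was on 1 of 18. Cd68, Csf1r and Ptprc were on all 18, C1qb on 16 and Marco on 12. The summed level of the list without the growth factor receptor gene Csf1r was 6.12 to 6.96 in P1 uninduced, 5.76 to 6.05 in P1 induced, 6.26 to 7.41 in late uninduced and 5.77 to 7.87 in late induced cells. Day 0 sums were 6.77 to 6.86 at P1 and 7.53 to 8.35 late, and fresh sums 12.1 to 30.5. Ptprc, the marker of all leukocytes, is the brightest probe of this sum in the CLiPs and differed little between fresh cells (2.81 to 2.96 on the log2 scale) and CLiPs (2.16 to 2.85).

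Csf1r alone moved in all 4 comparisons. It rose by 2.66 over 8 uninduced days at P1 and by 1.79 late, and fell by 1.18 and 1.32 with the inducers. With all probes of Csf1r averaged, neither fall reached 2-fold. The part of Csf1r-bearing cells in the Saa3 values was not tested. Of 10 neutrophil markers, Ly6g, Elane and Csf3r were well above background on all 18 CLiP arrays and Camp on 17. S100a9, Ngp, Ltf and Cxcr2 were on none, and the last 3 of these on no fresh array either. The summed level of the list was 71.4 to 87.0 in P1 uninduced, 72.6 to 81.6 in P1 induced, 78.5 to 89.9 in late uninduced and 83.8 to 98.2 in late induced cells. Csf3r carried most of this sum and differed little between fresh cells (6.41 to 6.57 on the log2 scale) and CLiPs (6.08 to 6.51). Ly6g alone of the list passed, rising by 2.04 over the late uninduced days and by 2.14 with the late inducers. The first call was lost without late day 0 array 2 or 3 or late uninduced array 1, and the second without any single array but late uninduced array 1. The part of such cells in the serum amyloid A values was not tested.

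The other acute-phase genes are split by convention into type 1, which like the serum amyloid A genes respond to interleukin-1 together with interleukin-6 type cytokines, and type 2, which respond to interleukin-6 type cytokines. In P1 cells 9 of 10 type 1 genes rose with the inducers and none fell (median log2 change 3.45). All 12 type 2 genes rose (median 3.60). Over all genes tested, 9.68% rose, 9.02% fell, and the median was 0.05.

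By the probe used for each gene, the type 1 genes with the greatest rise were the orosomucoid genes Orm3 (8.24), Orm2 (7.44) and Orm1 (6.90). Serum amyloid P (Apcs, 4.92), a pentraxin that binds amyloid fibrils, and C-reactive protein (Crp, 3.08) rose less, as did haptoglobin (Hp, 1.68) and the iron-siderophore carrier Lcn2 (1.85). The other probe of Orm3 had 4.86. Complement C3 had 0.97 and did not pass the 2-fold limit. Among type 2 genes the protease inhibitors A2m (8.69), Serpina3k (8.34) and Serpina3m (6.39) led. Of 10 negative acute-phase genes, plasma protein genes that fall in the acute phase, 5 rose and none fell. They included Fetub (4.16), Apoa1 (2.60) and Apoa2 (2.54), while Alb had 0.42 and did not pass.

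In late cells 2 of 10 type 1 genes rose with the inducers, Crp (1.62) and Apcs (1.55), and 7 of 11 type 2 genes did, led by Serpina3m (10.19), Serpina3k (9.92) and Serpina3n (8.24). On the late uninduced arrays Serpina3m was well above background on 2 and Serpina3k on 1, so the sizes of these changes and their order are uncertain. In all, 2.94% of genes rose and 3.06% fell. Blocking on replicate number removed the call of Apcs (limma adjusted p = 0.06), as did leaving out any day 8 array but late induced array 2, and it added that of Hp (2.76, limma adjusted p = 0.048). Orm2 had 2.50 and Orm1 2.50, neither passing, with array 2 lowest in both groups as for Saa1 to Saa4. Lcn2 had 0.02.

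Over the 8 late days without inducers, 9 of 10 type 1 genes rose (median 3.49) and 7 of 11 type 2 genes (median 3.01), against 8.19% of all genes. Hp (4.83), C3 (3.66), Lcn2 (3.31) and Apcs (4.11) were among them. The matching P1 counts were 6 of 10 and 9 of 12, against 6.28% of all genes rising and 4.86% falling. The orosomucoid genes were not well above background at late day 0, and their late rises were lost under normexp correction.

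Oncostatin M acts through receptors that share the subunit gp130. Of 18 genes of this pathway 3 rose and 2 fell at P1 (median 0.33). Socs3, the feedback inhibitor of this pathway, rose by 3.73 and the oncostatin M receptor gene Osmr by 1.66, and Socs1 by 1.35, while the ligand genes Lif and Clcf1 fell, Lif at least 2.13-fold to no array well above background and Clcf1 by 1.43. Socs1 was well above background on 2 of 3 uninduced arrays, and its call was lost under normexp correction (0.75). The shared subunit Il6st (0.55) and Stat3 (0.88) did not pass, with 0.82 to 1.46 over the 3 probes of Stat3.

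At late passage 2 rose and 2 fell of 18. Socs3 rose by 2.93 and Osmr by 1.04, and Il11 and Lif fell by 2.48 and 1.34. The Il11 call was lost without late uninduced array 1 or 2, and that of Lif under normexp correction (-0.57). The Osmr call lies at the 2-fold limit and was lost without late uninduced array 2 or 3 or late induced array 1. Over the uninduced late days 5 rose and 2 fell (6.37% of all genes fell). Among the risers were Osmr (2.37), Il6ra (1.75), Stat3 (1.03) and Il6st (1.01). The Il6st call was lost without late day 0 array 1 or late uninduced array 1 (0.99 each), and both it and Stat3 were under 2-fold with all probes averaged (0.65 and 0.97). Il6 did not pass over the P1 uninduced days (0.71) or with the P1 inducers (0.69), and was too dim for the late fit.

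Genes of the interleukin-1 and NF-kB pathway moved in both directions with the inducers. At P1 3 of 23 rose and 6 fell (median -0.23). The receptor genes Il1r1 (4.13) and Il1r2 (4.60), the latter a decoy, rose, as did Tnfrsf1a (1.08, and 0.82 under quantile normalization). Il1r2 was well above background on 1 of the 3 uninduced arrays. The receptor antagonist Il1rn fell by 4.19, the NF-kB inhibitors Tnfaip3 and Nfkbia by 1.29 and 1.02, and Nfkb1 by 1.21. The Nfkbia call was lost without P1 uninduced array 3 (-0.99).

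In late cells 2 rose and 2 fell of 23: Il1r2 (6.22), Il1r1 (1.77), Il1rn (-5.13) and Tnfaip3 (-1.11, -0.90 without late uninduced array 3). The ligand gene Il1b was never bright enough for a fit, and Tnf had -0.89 at P1 and -0.49 late by its brighter probe, neither passing, and -3.25 and -4.04 by its other probe. Il1rn was well above background on 2 of 3 late induced arrays. Over the uninduced days 1 of 23 rose at P1, Il1r2, which was well above background on 1 uninduced and no day 0 array and lost its call under normexp correction. Late, 3 rose, namely Il1r1 (1.90), Il1r2 (at least 4.67-fold, from no day 0 array well above background) and the co-receptor gene Il1rap (2.15).

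Of 14 transcription factor genes described at serum amyloid A promoters, 5 rose and 1 fell in P1 cells with the inducers. Cebpd (1.84), Cebpa (1.56), Hnf4a (1.31) and Cebpb (1.18) were among those that rose. Cebpb and Hnf4a were just short of 2-fold under quantile normalization and under normexp correction. Rela had -0.24, and the glucocorticoid receptor gene Nr3c1 had 0.39.

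In late cells 1 of the 14 rose, Cebpa (2.01). Cebpd and Cebpb each had 0.13 there and did not pass. During the uninduced late days Cebpa (2.54), Cebpd (1.45) and Stat3 (1.03) rose, Cebpa from a day 0 level well above background on 1 of 3 arrays, whereas at P1 no factor of the list passed over the same days.

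Glucocorticoid receptor targets rose at both passages, 8 of 12 at P1 (median 1.28) and 7 of 12 late (median 1.58). Fkbp5, which binds the receptor, rose by 2.21 and 2.19, and Zbtb16 by 1.81 and 2.29. The 3 probes of Fkbp5 ran from 0.54 to 2.21 at P1 and from 1.51 to 2.21 late. Over the uninduced P1 days the probe used for Fkbp5 had -1.19. Errfi1 rose by 2.37 and 1.63. Tat, a liver enzyme gene, rose by 3.00 at P1 and had 0.20 late. Sgk1 rose by 1.29 at P1, a call that the replicate block removed (limma adjusted p = 0.0504), as did leaving out any single uninduced or induced array, and by 2.61 late. Its 2 probes differed, with 0.48 and 1.29 at P1 and 0.16 and 2.61 late.

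**Figure D3:**
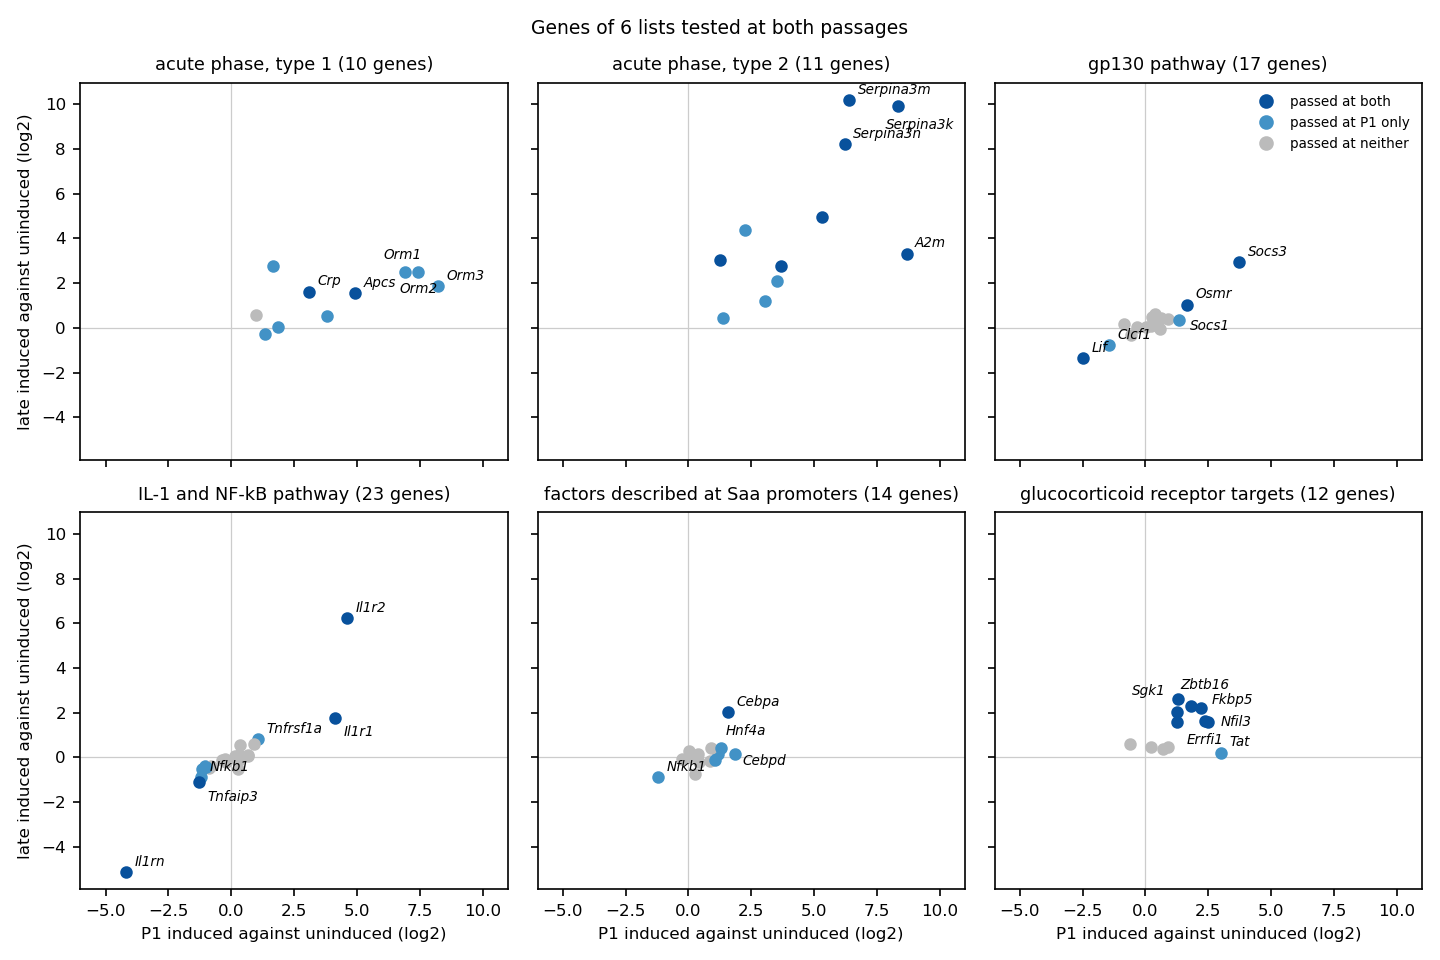
Log2 change with the inducers at P1 (horizontal axis) and at late passage (vertical axis) for genes of 6 lists that were tested at both passages. Each point is a gene, coloured by where it passed the test. Serpina3m, Serpina3k and Serpina3n lie highest on the late axis, and Orm2 and Orm1 lie far out on the P1 axis with late changes of 2.50 and 2.50.

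Genes of carriers and receptors of the proteins were read next. Of 17 genes of HDL apolipoproteins, enzymes and transporters, 12 rose at P1 with the inducers (median 1.49), led by Apoc3 (6.82), Apoa4 (5.03) and Lcat (5.00). The 3 probes of Apoc3 ran from 0.25 to 6.82. In late cells 1 of 13 rose, the lipid exporter Abca1 (2.20), and this call was lost without any of late uninduced arrays 2 and 3 or any late induced array. Among 10 receptors described for serum amyloid A, Cd36 (at least 78.9-fold), Scarb1 (2.03) and Cd14 (1.71) rose at P1 and Tlr2 fell by 1.52. In late cells Tlr2 fell by 1.33 and no other receptor passed of 8. Fpr2 and Tlr4 did not pass with the inducers at either passage, although the 3 probes of Tlr4 ran from -1.80 to 0.09 at P1 and from -1.03 to 0.39 late.

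Of 6 tested genes linked to amyloid deposits or to breakdown of the protein, Apcs and the protease gene Ctsl (1.19, and 0.71 under quantile normalization) rose and Hspg2, which codes for the heparan sulfate core protein perlecan, fell by 4.19 at P1. In late cells Hspg2 fell by 1.14, a call lost without most single arrays. Among the 10 pathway lists, those of type 1, type 2 and negative acute-phase genes, glucocorticoid targets and HDL had a median above 1 at P1.

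The genes on either side of the cluster were read as well. The 5 nearest protein-coding genes before it are Myod1, Kcnc1, Sergef, Tph1 and Saal1, and the 5 after it are Hps5, Gtf2h1, Ldha, Ldhc and Tsg101. With the inducers at P1, Ldha, a glycolysis enzyme gene, rose by 1.32, though by less than 2-fold under quantile normalization and normexp correction. Sergef (0.22), Saal1 (0.28), Hps5 (-0.16), Gtf2h1 (-0.27) and Tsg101 (-0.33) did not pass, and Myod1, Kcnc1, Tph1 and Ldhc were too dim for the fit. No neighbour passed over the uninduced days or with the inducers at late passage.

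**Figure D4:**
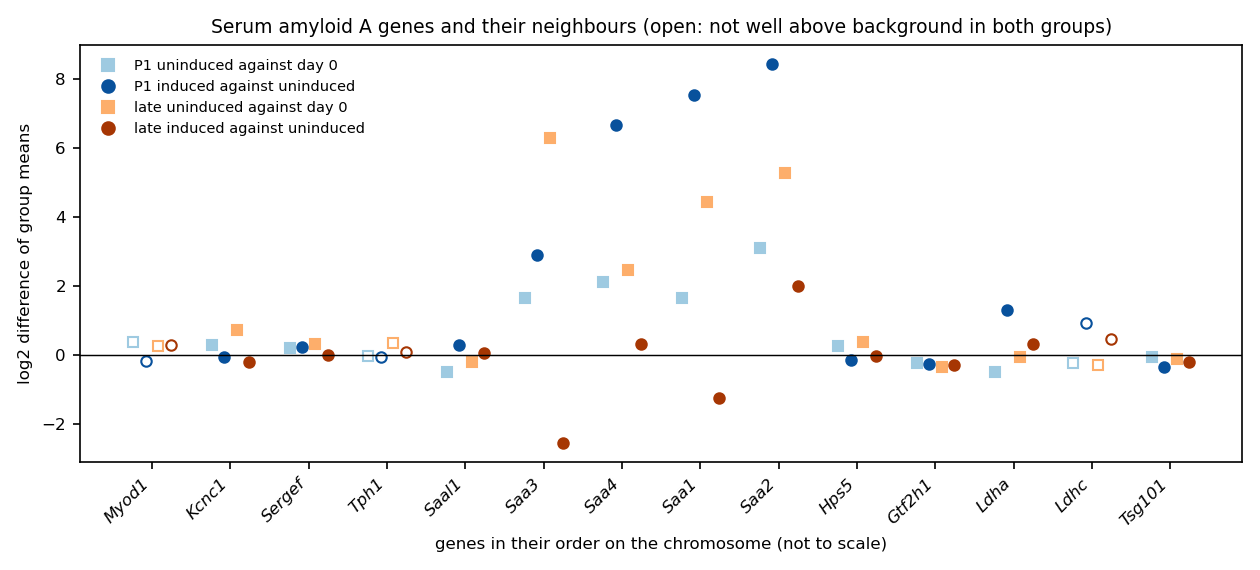
Log2 difference of group means (vertical axis) in 4 comparisons for the serum amyloid A genes and up to 5 protein-coding neighbours on either side, in chromosome order (horizontal axis, not to scale). Open symbols were not well above background in both groups. The neighbours lie near 0, and Ldha has the highest value among them (1.32).

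The likeness of the 4 genes to each other was measured as the root mean square difference of their 7 group means after centring. Saa2 and Saa4 (1.84) and Saa1 and Saa2 (1.91) were the nearest pairs, and Saa3 and Saa4 (3.90) and Saa2 and Saa3 (3.72) the farthest. Saa1 lay 2.15 from Saa3 and 2.19 from Saa4. For each gene the 5 nearest outside the family, among 22352 gene names compared, were then taken by the same measure.

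Every pair of members lay farther apart, at 1.84 or more, than the fifth gene of any list, at 1.64 or less. Saa2 was nearest to Orm3 (0.90), Orm2 (0.93) and Orm1 (1.19), followed by Itih3 (1.56) and Lrg1 (1.64). The 2 probes of Orm3 had -0.01 and 3.12 over the uninduced P1 days, and its distance was taken with the brighter one only. Saa1 was nearest to Apcs (1.17), then to Steap4 (1.27), Fgf21 (1.31), Il17rb (1.47) and Ak4 (1.47). Among the 5 nearest to Saa4 were Aspg (0.91), the complement gene C8a (0.92) and Plbd1 (0.98).

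Saa3 lay with none of these. Its nearest was Aoc1 (0.71), the gene of diamine oxidase, then Serpinb9g (0.85), Rnase1 (0.86), LOC102642471 (0.93) and Serpinb9f. Aoc1 read -0.56, -2.71 and -0.66 on the late uninduced arrays and -4.00, -4.04 and -3.95 on the late induced ones, and was 2.91 higher with the inducers at P1. It was thus lower in late induced cells as Saa3 was, while Serpinb9g (-0.26) and Rnase1 (-0.01) differed little there. These genes were chosen by their likeness over 7 groups, and several lie near background in day 0 cells, so the likeness is a description.

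**Figure D5:**
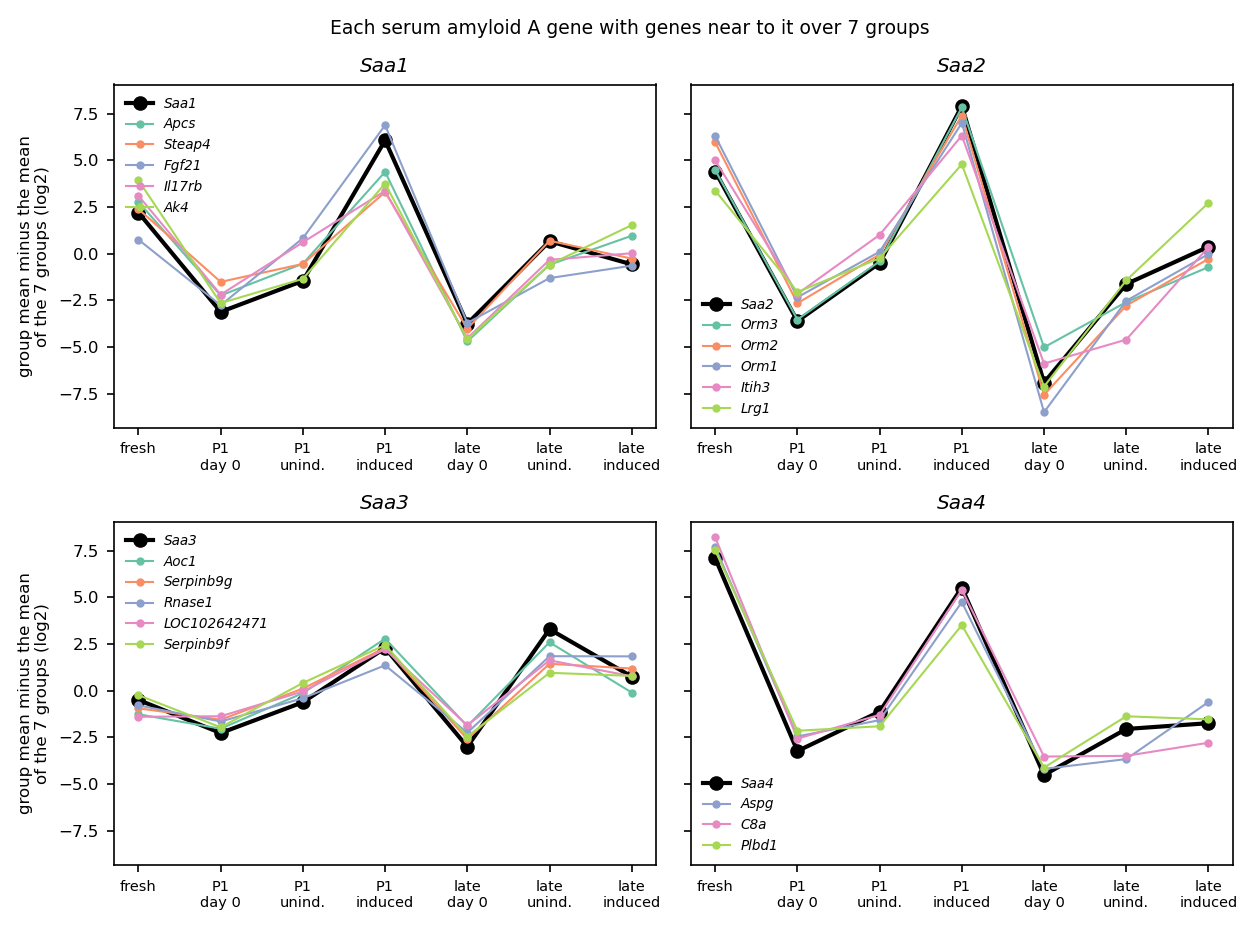
Group means minus the mean of the 7 groups on the log2 scale (vertical axis) for each serum amyloid A gene (black) and gene names among the 5 nearest to it (colours; 3 are drawn for Saa4), by group (horizontal axis). Lines join group means for reading and do not mark a time course. Orm3, Orm2 and Orm1 run close to Saa2, and Aoc1 runs closest to Saa3 (0.71).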

How the data were processed

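Total RNA of 21 samples was amplified, labelled with Cy3 and hybridised to one-colour Agilent arrays, per the labels' protocols. Per the file headers, the deposited scanner files give an intensity per spot, detrended after background subtraction and not scaled across arrays. Feature Extraction version 11.5.1.1 was used on P1 and fresh arrays, and 10.7.3.1 on the late ones. The authors' deposited log2 tables served as an alternative. Among the fresh arrays, 1 carries a P1 passage in its labels and was kept in the group its title names.

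Control spots and 1687 outlier spots were left out. Spots of 1 probe were averaged as log2 signals, and each array was centred on its 75th percentile. The probe with the highest mean stood for a gene. A gene was tested if it was well above background on all arrays of at least 1 group. Group means were fitted with limma 3.58.1 in R 4.3.3 (lmFit, eBayes), in a fit of 12 fresh and P1 arrays and a fit of 9 late arrays, with Benjamini-Hochberg adjustment over all genes tested. Simulated data with the same arrays were used to test the fits. Promoter windows were aligned with biopython 1.88.

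The members, the gene lists and the naming rule were chosen with earlier results of these data known. Named were the members, up to 3 highest and 3 lowest called genes of each list at each induction, a core of regulators, acute-phase and receptor genes, the 5 nearest patterns and the neighbours of the locus. Some genes of the lists and of the nearest patterns are not reported here. C3, Il6ra, Il1rap, Rela and single marker genes were named after their values were seen. Alternatives were quantile normalization, normexp, averaged probes, no filter, slides, the replicate block and leaving out each array. Same-numbered samples correlated in their deviations from the group means at 0.25 to 0.55 in the late comparisons, and at 0.10 to 0.46 between P1 day 0 and uninduced and between P1 uninduced and induced samples, so the numbers were taken to pair them. One pair of P1 day 0 and induced samples, groups not tested against each other here, had -0.07. At P1 the samples of number 1 lay on slide 4 and those of number 3 on slide 5, so number and slide cannot be fully told apart there. The pairing comes from the data, not from the labels. The main fits, their calls and the printed SEs treat the arrays as unpaired. Pairing enters only in the replicate block and in the differences within a number.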

Additional observations from a re-analysis of the deposited data

Results flagged for a closer look

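Saa3 stands out because its response to the inducers had opposite signs at the 2 passages, with no overlap of the arrays at either. All 3 induced arrays lay below all 3 uninduced arrays at late passage (log2 difference -2.53), and above them at P1 (2.90). Saa1 had opposite signs too (7.52 at P1 and -1.23 late), but its late groups overlapped. The difference between the passages was not tested for either gene.

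Aoc1, the gene nearest to Saa3 in pattern, changed sign as Saa3 did, with -2.69 at late passage and 2.91 at P1. This difference was not tested either, and Aoc1 was picked for its likeness to Saa3.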

How the results depend on the processing

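No result turned its direction while past a threshold under any alternative. Saa3 in P1 uninduced against fresh cells had 0.074 under normexp correction and 0.088 under quantile normalization, and -0.28 to 0.028 when single arrays were left out. Under normexp Saa4 had 0.51 for P1 uninduced against day 0 and 5.49 for P1 induction, and Saa2 had 2.72 for the late uninduced change. Slide 5 held 1 day 0 and 1 uninduced P1 array. Between them Saa1 differed by 2.14, Saa2 by 3.57, Saa3 by 1.80 and Saa4 by 1.79, Saa4 being well above background on neither. With P1 induction on slide 5, Saa2 had 7.30, Saa3 3.29 and Saa4 7.17, and Saa1 was higher too. The called genes over all genes numbered 500 within slide 5 for P1 uninduced against day 0 (2298 with all P1 arrays), and under normexp 1999 for the late uninduced change (3106) and 810 for late induction (1279). The cause of these falls was not tested, and the slide 5 comparison also used fewer arrays. With the replicate number as a block, 3263 and 1441 genes were called in the late comparisons. The Saa3 difference stayed at -2.53, which a block cannot change with 1 array of each number in each group. In the P1 comparisons the block gave 2311 and 3866 called genes against 2298 and 3857. Among the genes described above, the block changed the calls of Sgk1, Apcs and Hp and no other call within a passage. Of genes that the naming rule covers but that are not described, it changed late calls of G6pc, Krt7, Prom1 and Reln. Of the members' 386 values under alternatives, 372 stayed within the limits set for an equal result. Part of this was fixed in advance. Each member has 1 probe, so averaging probes left its differences as they were. Dropping the filter or blocking on number left them so too, and the authors' tables hold nearly the same values. Signals near background limit Saa4 in all but fresh and P1 induced cells and Saa2 at late day 0.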
